A study of Mus musculus with 12 samples.

Results

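Semaphorins, plexins, neuropilins and collapsin response mediator proteins (CRMPs) were followed in the embryonic mouse retina as 36 genes of 19954 listed in the deposited table of 12 libraries. Members were the listed protein-coding genes whose symbols name a semaphorin of classes 3 to 7, a plexin, a neuropilin or a CRMP. They comprised 7 secreted semaphorins (Sema3a to Sema3g), 13 membrane-bound semaphorins (Sema4, Sema5, Sema6 and Sema7a), 2 neuropilins, 9 plexins and 5 CRMPs.

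RNA came from retinas of E15.5 mouse embryos (aged in days of gestation), on a C57BL/6 background, in pools of 12 retinas taken from several litters. The 4 groups were wildtype males, wildtype females, mutant males and mutant females, with 3 pools each, numbered 4, 5 and 6 in the labels. Mutants were Six3-Cre:Tbr2f/f, that is, floxed alleles of the T-box transcription factor gene Tbr2 (listed as Eomes) with a Cre transgene driven by Six3 sequences, which act in the eye field and hence in most retinal cells. The labels give wildtype with no allele or transgene, so any effect of Cre itself cannot be told apart from that of the floxed gene. Because each library is a pool, p-values measure the spread between pools and not between embryos.

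Semaphorins are guidance cues that steer growing axons, and several also act on migrating cells and on vessels. Secreted class 3 semaphorins bind neuropilins, which hold the ligand for a plexin, whereas most membrane-bound semaphorins bind plexins directly, and plexins signal through a domain that inactivates small GTPases. CRMPs are cytosolic proteins that bind tubulin and relay semaphorin signals to the cytoskeleton, and in the retina the system is known for guiding ganglion cell axons and for sorting neurites into layers.

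Sequences are given first for 3 members, the ligand Sema3a, its co-receptor Nrp1 and the plexin gene Plxna3. These 3 had the smallest p-values of all members in the comparison of library sets. Each is the 250 bases before the RefSeq start site on GRCm38.p6, read on the plus strand at chr5:13396534-13396783, chr8:128358823-128359072 and chrX:74328816-74329065. The Sema3a stretch held 40.8% G and C, the Nrp1 stretch 64.4% and the Plxna3 stretch 68%, and the median was 63.8% over 40 promoter entries of 28 matched members and 52.4% over all 32851 entries.
Sema3a: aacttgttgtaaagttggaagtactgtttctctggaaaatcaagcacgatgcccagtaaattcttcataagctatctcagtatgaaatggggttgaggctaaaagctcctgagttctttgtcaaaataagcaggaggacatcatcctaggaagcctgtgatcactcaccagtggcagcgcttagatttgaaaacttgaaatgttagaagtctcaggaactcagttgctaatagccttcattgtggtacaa
Nrp1: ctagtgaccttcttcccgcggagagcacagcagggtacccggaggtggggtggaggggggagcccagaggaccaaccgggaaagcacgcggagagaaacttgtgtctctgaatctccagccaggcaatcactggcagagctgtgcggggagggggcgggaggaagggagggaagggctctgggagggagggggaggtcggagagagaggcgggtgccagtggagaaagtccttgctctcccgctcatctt
Plxna3: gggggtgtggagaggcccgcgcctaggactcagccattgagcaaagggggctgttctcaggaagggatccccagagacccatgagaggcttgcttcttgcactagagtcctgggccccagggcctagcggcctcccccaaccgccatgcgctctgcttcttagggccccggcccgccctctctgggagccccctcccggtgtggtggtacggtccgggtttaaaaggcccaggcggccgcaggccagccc

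Because Tbr2 is a T-box factor, the octamer AGGTGTGA (TCACACCT on the other strand), of the kind T-box factors bind, was searched on both strands from 250 bases before to 50 bases after each start. Sema4a alone among the members held it, in 1 of 40 entries (2.5%), against 1.28% of all entries. The Sema4a match lay 40 to 47 bases after the start on the minus strand at chr3:88461133-88461162 and is printed with the octamer in capitals.
Sema4a: gtctgtactgctgggggtaAGGTGTGAaag
The shorter hexamer AGGTGT, which is part of the octamer, occurred in 7 of 40 member entries (17.5%), those of Crmp1, Sema3d, Sema3g, Sema4a, Sema4f and Sema6d, against 13.7% of all entries. A match to these letters describes the window and is not a binding site, and the table held no entry for Dpysl2, Dpysl3, Dpysl4, Plxna1, Plxna4, Sema3b, Sema3f or Sema6a.

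Libraries held 18514607 to 27072825 counts over 16903 to 19242 genes with a read. Eomes stood at 15.01 to 21.4 FPKM in wildtype and 2.70 to 7.69 FPKM in mutant libraries, and edgeR's quasi-likelihood test over both sexes gave a log2 difference of -1.76 (SE 0.15, Benjamini-Hochberg adjusted p = 0.000484). FPKM is the count scaled by gene length and library total. All 10 progenitor markers and 11 of 12 ganglion cell markers exceeded 1 CPM (counts scaled by library total alone) in every library. Summed ganglion cell markers ran from 3599 to 3912 CPM in wildtype and from 3655 to 4124 CPM in mutant libraries, and lens markers from 10.3 to 820 CPM and from 5.56 to 1989 CPM. In such bulk RNA, fewer cells of a type and less RNA per cell cannot be told apart. The mitochondrial transcript mt-Nd6 exceeded 100 CPM in 5 libraries, called the high set here (mutant female 4, mutant male 4, wildtype female 4, wildtype female 6 and wildtype male 5), and not in the other 7, called the low set. Mutant male 6 stood apart in both directions. It held the highest level for 16 of the 35 members tested (45.7%) and for 27.2% of all genes tested. It also held the lowest level for 11.4% of the members and 28.4% of all genes, and had the fewest genes with a read (16903).

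CRMPs made up most of the RNA of these genes. Summed over the 5 genes they reached 651 ± 21.6 FPKM in wildtype (SD, n = 6), or 66.7% of the sum over all members, and 660 ± 52.1 FPKM in mutant libraries. Plexins followed with 158 ± 7.85 FPKM in wildtype and 168 ± 20.6 in mutant libraries, and membrane-bound semaphorins with 122 ± 3.93 and 125 ± 11.3. Secreted semaphorins summed to 34.1 ± 2.85 and 33.7 ± 5.47 FPKM, and neuropilins to 10.8 ± 0.709 and 11.04 ± 0.596. By median wildtype level, 16 members stood at 10 FPKM or more, 13 from 1 to under 10 and 7 under 1. These 7 were Plxna4, Plxnb3, Sema3b, Sema3c, Sema3d, Sema3e and Sema3g.

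**Figure D1:**
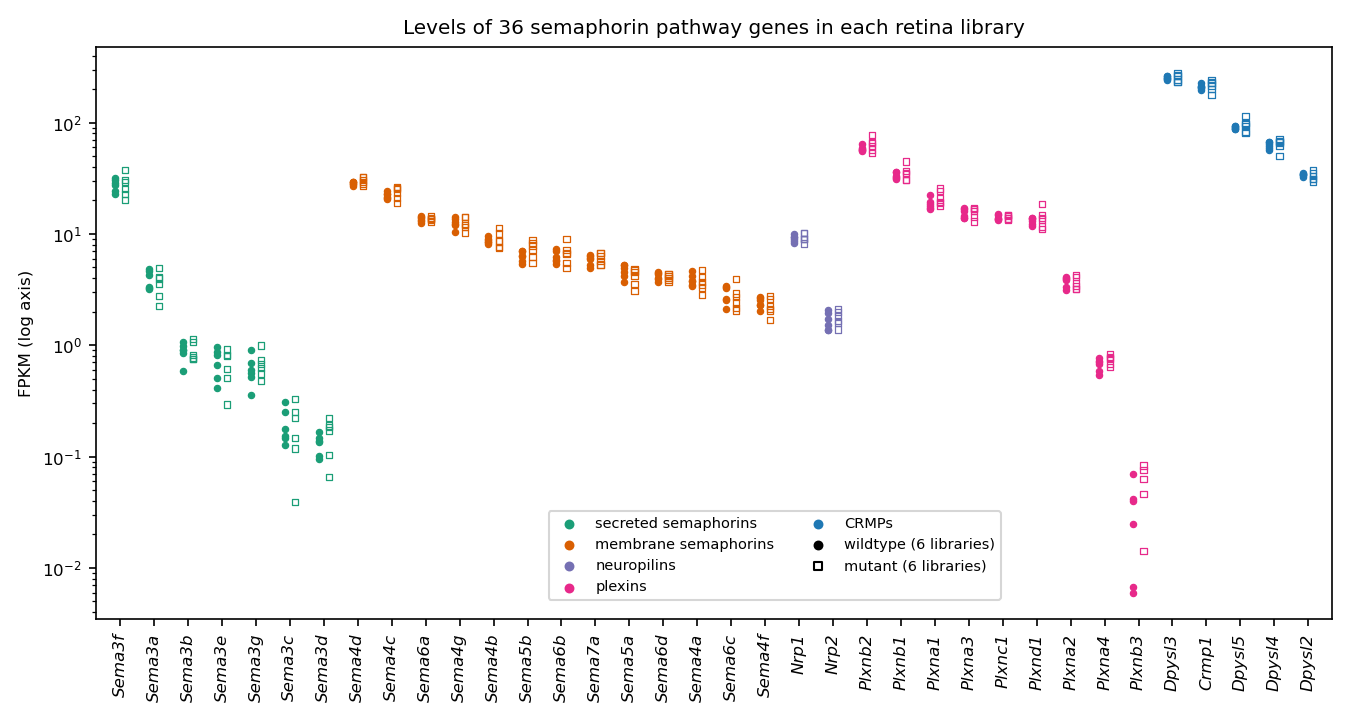
FPKM on a log axis for each of the 36 members, grouped by role, with filled circles for the 6 wildtype and open squares for the 6 mutant libraries. Dpysl3 and Crmp1 lie highest, at wildtype medians of 252 and 210 FPKM, secreted semaphorins run from Sema3f at 28.3 down to Sema3d at 0.137, plexins from Plxnb2 at 57.6 down to Plxnb3 at 0.0323, and the mutant library with 0 counts of Plxnb3 has no symbol.

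Among secreted semaphorins only Sema3f and Sema3a exceeded 1 FPKM at the median. Sema3f, a repellent that binds Nrp2, had a lowest, median and highest level of 22.9, 28.3 and 31.7 FPKM in wildtype and of 20.3, 27.2 and 37.5 in mutant libraries. Sema3a, the repellent that binds Nrp1, had 3.22, 3.82 and 4.79 FPKM in wildtype and 2.27, 3.76 and 4.93 in mutant libraries. Both mutant ranges enclosed the wildtype range. Wildtype levels of Sema3f lay above those of Sema3a, and those of Sema3a above those of Sema3b (0.590 to 1.07 FPKM), Sema3e (0.412 to 0.974) and Sema3g (0.358 to 0.913), whose ranges overlapped. Sema3c (0.127 to 0.306 FPKM) and Sema3d (0.0956 to 0.168) were lower again and overlapped each other. Sema3d rested on 10 to 28 counts per library and Sema3c on 5 to 43, so that counting alone gives a coefficient of variation of 22.5% and 20.1%. Across wildtype libraries the coefficient of variation was smallest for Sema3f (12.4%) and largest for Sema3c (36.1%). Sema3d, Sema3a, Sema3e and Sema3c lie in that order on mm10 chromosome 5, and Sema3b and Sema3f lie 72.3 kb apart on chromosome 9.

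Membrane-bound semaphorins were led by Sema4d, the ligand of Plxnb1, with a lowest, median and highest wildtype level of 26.7, 28.8 and 29.6 FPKM and mutant levels of 27.3, 29.97 and 32.6. Sema4c, a ligand of Plxnb2, came next at 20.6, 22.2 and 24.3 FPKM in wildtype and 19.1, 24.2 and 26.2 in mutant libraries. Sema6a, which binds class A plexins and in the retina helps to separate synaptic layers, stood at 12.5, 13.6 and 14.4 FPKM and at 12.9, 13.7 and 14.5. In each of the 3 the wildtype and mutant ranges overlapped. Sema4d lay above Sema4c and Sema4c above Sema6a in wildtype, while Sema6a overlapped Sema4g (10.4 to 14.3 FPKM). Sema4b (8.06 to 9.57 FPKM) was separate from the members on either side of it. From Sema5b (5.40 to 7.08 FPKM) down through Sema6b, Sema7a, Sema5a, Sema6d, Sema4a and Sema6c to Sema4f (2.05 to 2.71 FPKM) each gene overlapped the next. Sema4d varied least across wildtype libraries, with a coefficient of variation of 4.07%, and Sema6c most, with 18.6%.

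Nrp1, the co-receptor of Sema3a that also binds VEGF, was the more abundant neuropilin, with a lowest, median and highest level of 8.35, 9.23 and 9.99 FPKM in wildtype and 8.20, 9.05 and 10.2 in mutant libraries. Nrp2, the co-receptor of Sema3f, had 1.38, 1.63 and 2.09 FPKM in wildtype and 1.39, 1.74 and 2.10 in mutant libraries. The neuropilins did not overlap each other in wildtype, and each overlapped itself between genotypes. Sema3f RNA stood at a median wildtype level of 28.3 FPKM beside its co-receptor Nrp2 at 1.63, and Sema3a at 3.82 beside Nrp1 at 9.23.

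Plxnb2, a receptor of class 4 semaphorins, was the most abundant plexin, at 55.4, 57.6 and 64.9 FPKM (lowest, median, highest) in wildtype and 53.1, 63.7 and 77.0 in mutant libraries. Plxnb1, the receptor of Sema4d, stood at 30.9, 32.9 and 35.96 FPKM and at 30.5, 34.9 and 44.8. Plxna1, a partner of neuropilins, stood at 16.9, 18.3 and 22.3 FPKM and at 17.96, 20.2 and 25.6. The highest library of each of the 3 was mutant male 6, and all ranges overlapped between genotypes. In wildtype Plxnb2 lay above Plxnb1 and Plxnb1 above Plxna1, while Plxna1, Plxna3, Plxnc1 and Plxnd1 each overlapped the next. Plxna3 ran from 13.8 to 17.2 FPKM, Plxnc1, the receptor of Sema7a, from 13.4 to 15.03, and Plxnd1, the receptor of Sema3e, from 11.8 to 14.01. Plxna2 (3.11 to 4.09 FPKM) and Plxna4 (0.538 to 0.763), which bind class 6 semaphorins, were lower and separate. Plxnb3 had 0 to 11 counts per library and 0 in mutant male 6, a count that allows up to 3 counts or 0.0261 FPKM there, and it was the only member under the filter on low counts. Across wildtype libraries Plxnc1 varied least (coefficient of variation 4.71%) and Plxnb3 most (76.9%).

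All 5 CRMPs were separate from each other in wildtype. Dpysl3 (CRMP4) had a lowest, median and highest level of 242, 252 and 262 FPKM in wildtype and 230, 253 and 279 in mutant libraries, and Crmp1 had 197, 210 and 229 and 178, 222 and 242. Dpysl5 (CRMP5) stood at 87.3, 90.6 and 93.0 FPKM and at 80.2, 95.5 and 115. Dpysl4 (CRMP3) stood at 57.1, 63.1 and 66.9 FPKM and at 50.3, 66.7 and 71.3, and Dpysl2 (CRMP2), the tubulin-binding founder of the group, at 32.6, 34.1 and 35.5 and at 29.6, 32.1 and 37.5. For every CRMP the mutant range enclosed the wildtype range. Dpysl3 exceeded 98.9% of listed protein-coding genes in median wildtype level and Dpysl2 86.4%. Their wildtype coefficients of variation ran from 2.88% for Dpysl2 to 6.27% for Dpysl4.

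Wildtype and mutant retina were compared first over both sexes, to ask which genes depend on Tbr2. No member passed the threshold. By edgeR's quasi-likelihood test with genotype and sex as terms, 0 of 35 members had a Benjamini-Hochberg adjusted p under 0.05, where 4 of 15467 genes did (0.0259%), and 0 had an unadjusted p under 0.05, where 2.92% of all genes did. DESeq2 and limma voom also called 0 members. The log2 differences, mutant minus wildtype, ran from -0.16 for Sema5a to 0.23 for Sema3d, with a median of 0.02 against -0.01 over all genes. The 95% interval lay within 1.5-fold in either direction for 31 of the 35, all but Sema3c, Sema3d, Sema3e and Sema3g, each under 1 FPKM at the wildtype median.

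Most plexins had slightly positive differences, with none called. Of 8 tested 7 were positive, against 47.3% of all genes, but 5 with GC-corrected library offsets, 5 without mutant male 6 and 2 within the high set. The negative value was that of Plxna2 at -0.04. The smallest p of any member was that of Plxna1 (mm10 chromosome 6, 89316316 to 89362613, minus strand), whose male level in libraries 4, 5 and 6 was 22.3, 19.2 and 17.8 FPKM for wildtype and 17.96, 24.4 and 25.6 for mutants. Plxna1 was at 18.7, 16.9 and 17.0 FPKM in wildtype females and at 19.5, 21.0 and 19.1 in mutant females. Groups overlapped in males and not in females. Its log2 difference by edgeR was 0.18 (SE 0.09, Benjamini-Hochberg adjusted p = 0.918), and without mutant male 6 it was 0.14. With GC-corrected offsets the difference of Plxna1 was 0.12, and Nrp1 had the smallest p of any member. The other plexins ran from 0.00 (Plxnc1) to 0.15 (Plxna4), with Plxnb2 at 0.11 (SE 0.08).

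Sema5b, a membrane semaphorin that binds Plxna1 and Plxna3 and keeps inner retinal neurites in their layer, had the largest difference among members above 1 FPKM. Its level (mm10 chromosome 16, 35541145 to 35664732, plus strand) was 7.08, 7.06 and 6.31 FPKM in wildtype male libraries 4, 5 and 6 and 5.49, 8.24 and 8.76 in those of mutant males. In females it was 5.73, 6.39 and 5.40 FPKM in wildtype and 6.24, 7.88 and 7.15 in mutant libraries. Mutant male 4 lay below all wildtype males, and mutant female 4 below wildtype female 5. By edgeR the log2 difference over both sexes was 0.20 (SE 0.10, Benjamini-Hochberg adjusted p = 0.918). Among the remaining membrane semaphorins differences ran from -0.16 (Sema5a) to 0.07 (Sema6b), with 7 of the 13 positive in all. CRMPs ran from -0.06 (Dpysl2) to 0.06 (Dpysl5), and Nrp1 and Nrp2 were at 0.02 and 0.07. With GC-corrected offsets Sema5b was at 0.12, below Nrp1 (0.16) and Sema6c (-0.18) in size.

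**Figure D2:**
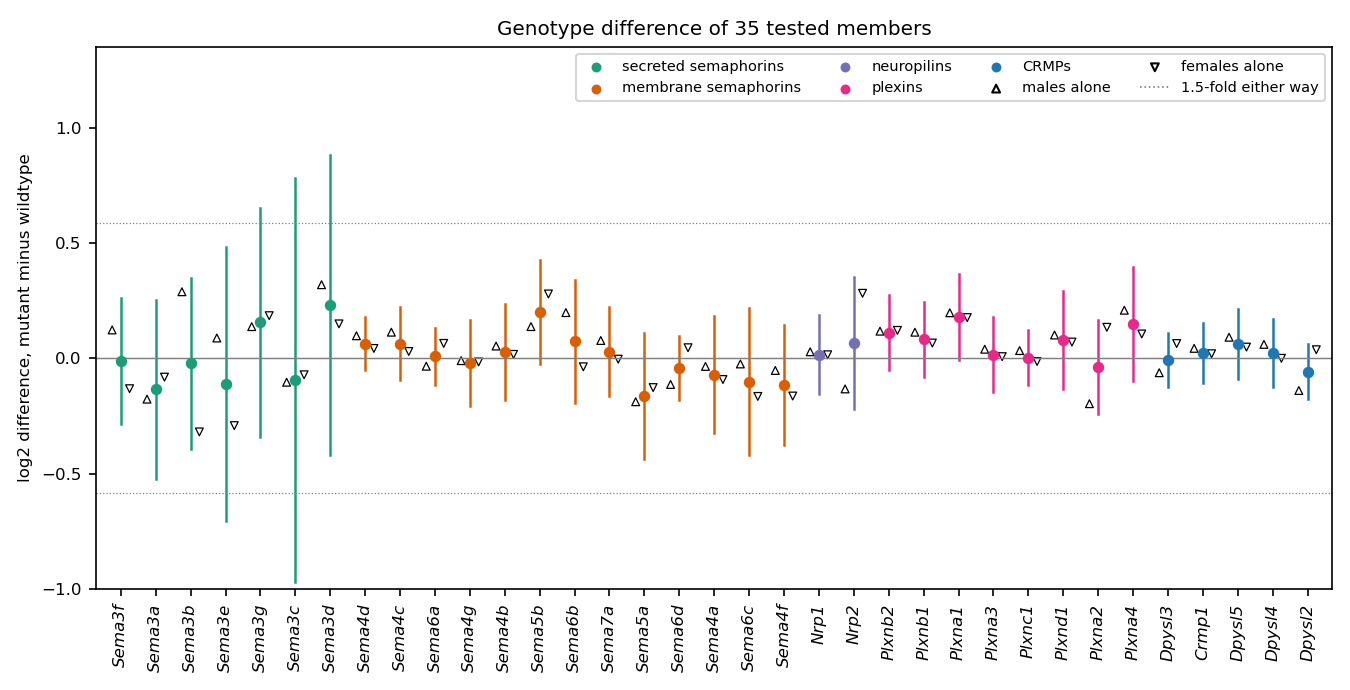
Log2 difference, mutant minus wildtype, of the 35 members tested, with 95% intervals over both sexes from the edgeR fit on 12 libraries (dots and bars) and the values in males and females alone (triangles). All intervals include 0, and those of Sema3c, Sema3d, Sema3e and Sema3g cross the dotted lines at 1.5-fold.

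In males alone 0 of 35 members passed by edgeR, as did 0 of 14945 genes (0%), and 0 members had an unadjusted p under 0.05, where 1.41% of genes did. Eomes, the deleted gene, did not pass there either, at a log2 difference of -1.43 (SE 0.16, Benjamini-Hochberg adjusted p = 0.295 by edgeR). A member that did not pass in males is therefore not shown to be unchanged. DESeq2 and limma voom likewise called 0 members in males. Male libraries of mutant and wildtype did not overlap for 2 members, both lower in mutants (5.71%), against 5.5% of all genes. They were Dpysl2 (mm10 chromosome 14, 66802864 to 66868688, minus strand), at 35.5, 32.6 and 33.5 FPKM in the wildtype libraries and 31.2, 29.6 and 31.2 in the mutant ones, and Sema6d, a partner of Plxna1. Sema6d was at 4.50, 4.57 and 4.34 FPKM in wildtype and 4.21, 4.33 and 3.83 in mutant males. Their edgeR log2 differences were -0.14 (SE 0.09) and -0.11 (SE 0.11), each with a Benjamini-Hochberg adjusted p = 0.994. In females the same genes overlapped between genotypes, at 33.9 to 34.5 and 33.1 to 37.5 FPKM for Dpysl2.

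In females alone 0 of 35 members passed by edgeR, against 1 of 14956 genes (0.00669%). Sema5b was the only member with an unadjusted p under 0.05, at a log2 difference of 0.28 (SE 0.10, 95% interval 0.04 to 0.52, adjusted p = 0.986 by edgeR with Benjamini-Hochberg adjustment), and 2.63% of all genes had such a p. Genotypes did not overlap in females for 3 members (8.57%), against 8.09% of all genes. Plxna1 and Plxnb2 were higher in mutants, the latter at 57.3, 65.6 and 61.8 FPKM in mutant females 4, 5 and 6 and at 57.2, 57.1 and 55.4 in wildtype females. Sema3b was lower, at 0.749, 0.747 and 0.778 FPKM against 0.914, 1.07 and 0.858, and rested on 39 to 86 counts per library. No member was separate in the same direction in both sexes, where 0.394% of genes were, nor in opposite directions, where 0.239% were.

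**Figure D3:**
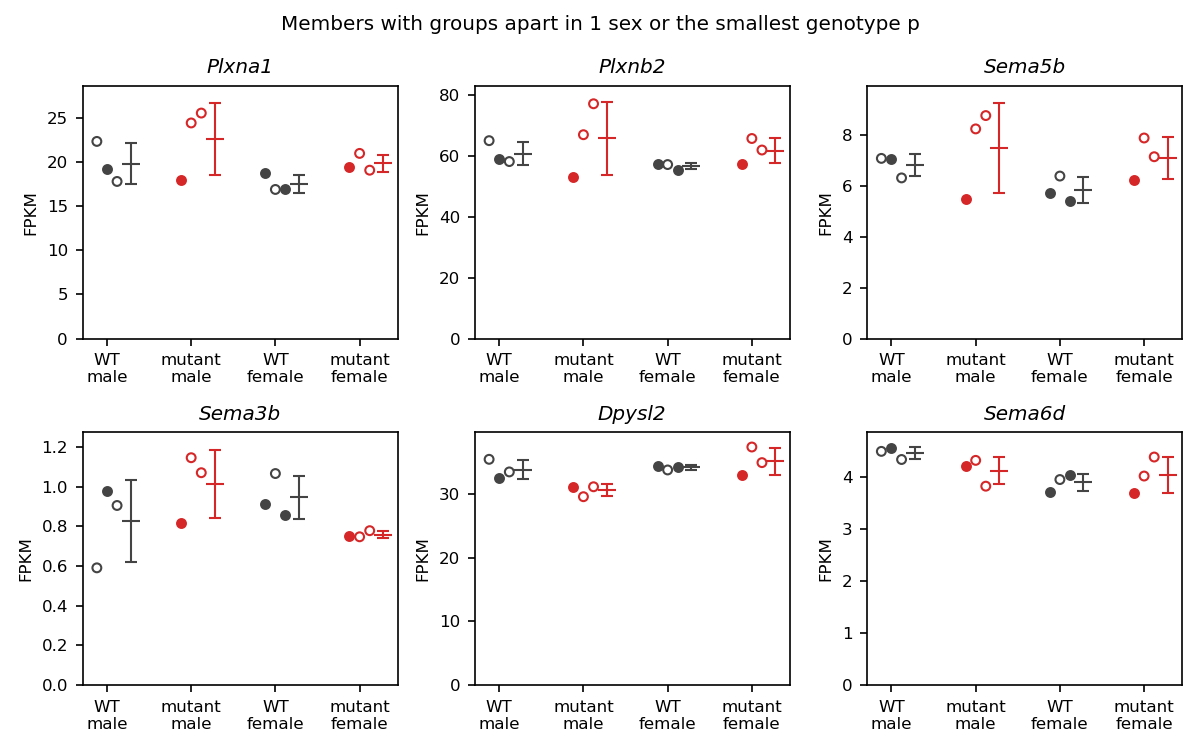
FPKM of 6 members by group, with 3 libraries each (circles, grey for wildtype and red for mutant, filled where mt-Nd6 exceeds 100 CPM) and the group mean with SD. Plxna1, Plxnb2 and Sema3b are separate in females only, Dpysl2 and Sema6d in males only, and Sema5b in neither sex.

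Whether the genotype difference itself depended on sex was tested over all 12 libraries. By edgeR 0 of 35 members passed, as did 0 of 15467 genes (0%), and 0 members had an unadjusted p under 0.05, where 1.73% of genes did. Plxna2 had the smallest p, with a difference between the sexes of 0.34 on the log2 scale (SE 0.17, 95% interval -0.03 to 0.71), from -0.20 in males and 0.13 in females. Plxna2 was at 3.98, 4.09 and 3.94 FPKM in wildtype and 3.18, 4.11 and 3.18 in mutant male libraries, and at 3.33, 3.11 and 3.85 in wildtype females and 3.39, 3.65 and 4.29 in mutant females. Sema3b (-0.60, SE 0.31) and Nrp2 (0.42, SE 0.25) had the largest differences in size. The 95% interval stayed within 1.5-fold for 20 of the 35, and for the other 15, Plxna2, Nrp2 and Sema3b among them, it reached beyond that.

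Females and males were compared in the same fit as the genotypes. By edgeR 0 of 35 members passed, against 2 of 15467 genes (0.0129%). Dpysl2 had an unadjusted p under 0.05, as had 2.79% of all genes, with a log2 difference, female minus male, of 0.13 (SE 0.05, Benjamini-Hochberg adjusted p = 0.879). Mean levels of Dpysl2 were 33.9 ± 1.48 FPKM in wildtype males, 34.2 ± 0.350 in wildtype females, 30.7 ± 0.898 in mutant males and 35.2 ± 2.19 in mutant females (SD, n = 3 each). By these means the sexes differed by more among mutants than among wildtypes, but the interaction did not pass (edgeR, Benjamini-Hochberg adjusted p = 0.99996). DESeq2 and limma voom called 0 members between the sexes, for the interaction and in females alone. Of the 35 members 25 were lower in females and 10 higher, where 50.9% of all genes were higher. With GC-corrected offsets 17 members were lower and 18 higher. Dpysl2 (0.11) and Nrp1 (-0.16) then had an unadjusted p under 0.05, where 3.19% of genes did, and 0 members passed.

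The largest differences among members lay between the high and the low set of libraries, and not between genotypes or sexes. By edgeR with genotype and sex as terms, 6 of 35 members passed (17.1%), against 2057 of 15467 genes (13.3%), and 11.4% of all genes were called higher and 1.93% lower in the high set. An unadjusted p under 0.05 was found for 13 members (37.1%) and 29.4% of all genes. Sema3a, Sema5a and Nrp1 were higher in the high set, and Plxna3, Sema4c and Sema3f lower. The sets were defined from mt-Nd6 alone, each genotype and sex has libraries in both, and neither the labels nor the file headers name a batch that matches them.

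Sema3a (ENSMUSG00000028883, mm10 chromosome 5, 13396784 to 13602565) stood in the high set at 4.08 FPKM in mutant female 4, 4.93 in mutant male 4, 4.31 and 4.61 in wildtype females 4 and 6 and 4.79 in wildtype male 5. In the low set it ran from 2.27 to 3.98 FPKM with a median of 3.30, so that the sets did not overlap. The log2 difference, high minus low, was 0.52 (SE 0.11, adjusted p = 0.00553 by edgeR with Benjamini-Hochberg adjustment). Nrp1 (ENSMUSG00000025810, chromosome 8, 128359073 to 128505462) stood at 10.2, 10.2, 9.47, 9.06 and 9.99 FPKM in the same 5 libraries, in that order, and at 8.20 to 9.41 in the low set, a difference of 0.21 (SE 0.06, adjusted p = 0.0296). Sema5a, a membrane semaphorin that acts with Sema5b (ENSMUSG00000022231, chromosome 15, 32244813 to 32696341), stood at 4.88, 4.58, 5.23, 4.91 and 5.25 FPKM and at 3.08 to 4.70, a difference of 0.32 (SE 0.09, adjusted p = 0.0363). Sets overlapped for Nrp1 and Sema5a.

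Plxna3 (ENSMUSG00000031398, chromosome X, 74329066 to 74344689) stood at 12.9, 14.3, 13.8, 14.6 and 14.002 FPKM in the high set and at 16.004 to 17.2 in the low set, with no overlap. Its log2 difference was -0.22 (SE 0.05, adjusted p = 0.00432 by edgeR with Benjamini-Hochberg adjustment). Sema4c (ENSMUSG00000026121, chromosome 1, 36548642 to 36558381) stood at 19.1, 20.9, 20.6, 21.7 and 21.3 FPKM and at 22.8 to 26.2, also separate, a difference of -0.19 (SE 0.06, adjusted p = 0.0424). Sema3f (ENSMUSG00000034684, chromosome 9, 107681502 to 107710475) stood at 20.3, 22.8, 22.9, 28.8 and 24.3 FPKM and overlapped the low set, at 25.4 to 37.5, with a difference of -0.32 (SE 0.10, adjusted p = 0.0466). Dpysl4 and Plxnb1 were separate too without passing. In all 5 of 35 members (14.3%) did not overlap between sets, against 15.7% of genes. Sema3a and Plxna3 were called in each fit that left out 1 library. Nrp1, Sema5a, Sema4c and Sema3f all lost the call without mutant female 4 or 6, mutant male 4, wildtype female 5 or wildtype male 5, and some of them without mutant male 5, wildtype female 4 or wildtype male 6. With the replicate number as a block 2 members were called, Plxna3 and Sema3a. The number of members called ran, as libraries were left out, from 2 (without mutant female 4, mutant female 6, mutant male 4 or wildtype female 5) to 10 (without mutant male 6).

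**Figure D4:**
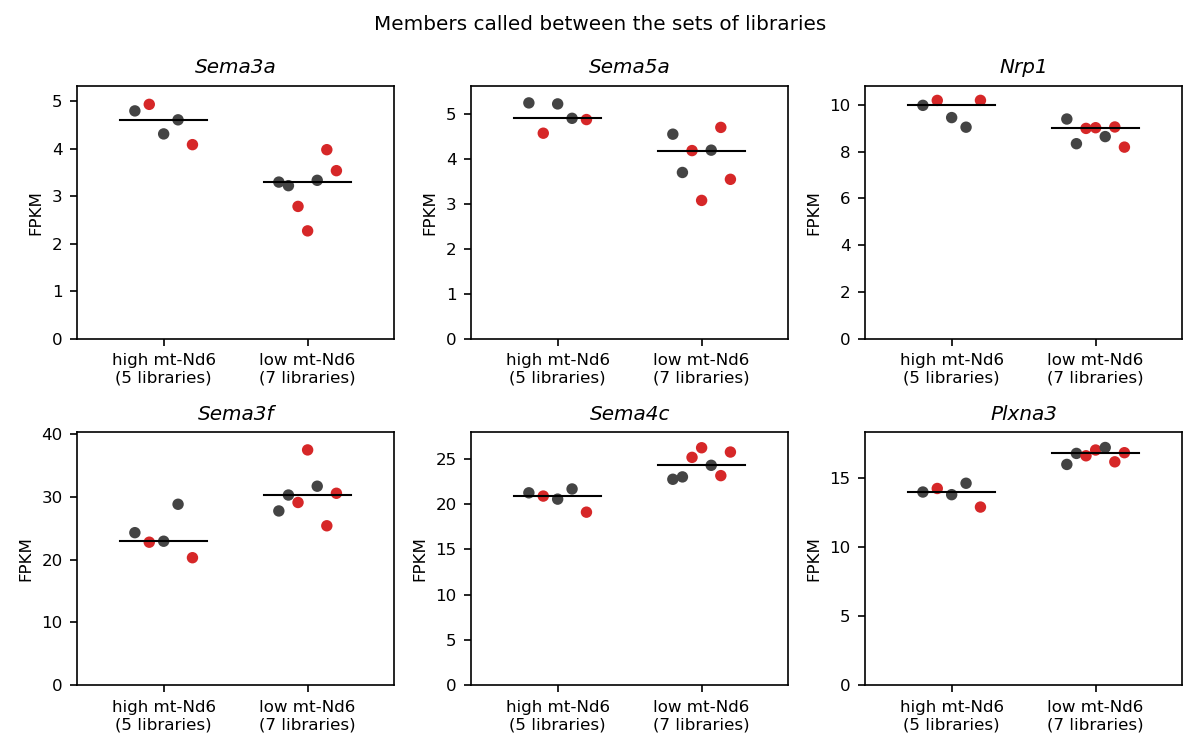
FPKM of the 6 members called between the sets of libraries, with 5 libraries high and 7 low in mt-Nd6 (grey for wildtype, red for mutant, bar at the median). Sema3a, Plxna3 and Sema4c do not overlap between sets, and each set holds both genotypes.

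These differences varied with the base composition of the transcripts. Over the 35 members Pearson's r between the set difference and the GC content of the longest annotated transcript was -0.888 and Spearman's rho -0.828, against -0.59 and -0.703 over 15369 genes, as a description across genes that share the same 12 libraries. All 6 members under 46% GC (Sema3d, Sema3a, Nrp1, Sema3e, Sema3c, Sema5a) had positive differences, from 0.21 to 0.52. Of the 20 members at 54% GC or more, 19 had negative differences, Sema3g being the exception at 0.17. The 9 members in between, among them Dpysl2, Dpysl3 and Sema6d, ran from -0.06 to 0.07. Among the class 3 ligands Sema3a, at 40.8% GC, was higher in the high set and Sema3f, at 58.4%, lower, while Sema3b, at 56.5%, was at -0.002. With library offsets corrected for GC content, chosen after seeing the data, 0 of 35 members passed by edgeR, against 4.64% of genes, and 4 had an unadjusted p under 0.05, against 14.3%. Those 4 were Sema5a at 0.22, Plxna3 at -0.10, Sema3f at -0.15 and Sema4d at 0.10, with adjusted p from 0.196 to 0.308 by edgeR with Benjamini-Hochberg adjustment. Of the 6 members called without the correction, these first 3 kept their direction at a smaller size, as did Sema3a at 0.12 (adjusted p = 0.611) and Sema4c at -0.04 (adjusted p = 0.823), while Nrp1 turned to -0.11 (adjusted p = 0.580, by the same edgeR fit). Uncorrected genotype and sex differences varied with GC content as well. For genotype over both sexes Pearson's r was 0.357 over all genes with a GC value and 0.279 over the members. It was 0.349 and 0.344 for genotype in males, 0.246 and 0.0728 in females, and -0.351 and -0.383 between the sexes.

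**Figure D5:**
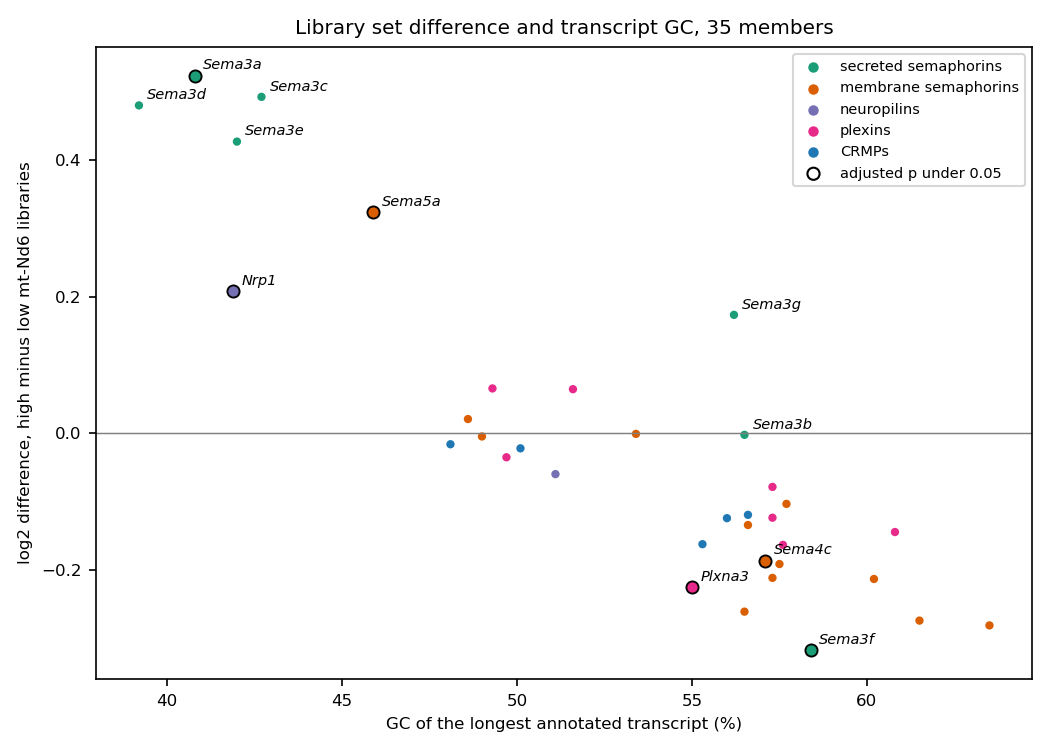
Log2 difference between library sets, high minus low mt-Nd6, against transcript GC content for the 35 members, coloured by role, with black outlines for those called. Members under 46% GC all lie above 0, from 0.21 to 0.52, and 19 of the 20 at 54% or more lie below 0.

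Genotype differences were therefore recomputed within each set. Within the 5 libraries of the high set (3 wildtype, 2 mutant) 30 of 35 members were lower in mutants, with a median of -0.12, and within the 7 of the low set (3 wildtype, 4 mutant) 28 of 36 were higher, with a median of 0.12. Of all genes 49% were positive in the high set and 50.5% in the low set. Plexins were positive in 2 of 8 and in 9 of 9 cases. The low set adds Plxnb3, which passed the filter on low counts there and rests on 0 to 11 counts per library. By edgeR 0 members passed in either set, against 0.0188% and 0.0186% of genes. Crmp1, Dpysl5, Plxnd1 and Sema3f had an unadjusted p under 0.05 in the high set, where 7.43% of genes did. In the low set Dpysl5, Plxna1, Plxna4, Plxnb2, Plxnd1, Sema4d and Sema5b had one, where 8.72% of genes did. Dpysl5 and Plxnd1, in both lists, were lower in mutants in the high set and higher in the low set. In the high set Dpysl5 stood at 80.2 and 83.3 FPKM in mutant and 87.3 to 91.8 in wildtype libraries. In the low set it stood at 93.8 to 115 and at 89.4 to 93.03. Plxnd1 stood at 11.02 and 11.7 FPKM and at 12.4 to 13.6 in the high set. In the low set it stood at 13.5 to 18.7 and at 11.8 to 14.01, which overlapped. The log2 difference of Plxna1 was 0.03 in the high and 0.30 in the low set, and that of Sema5b -0.06 and 0.31. The high set holds, as 1 of its 2 mutant libraries, mutant female 4, which was lowest for 31.4% of members tested and 17% of all genes. The low set holds mutant male 6, highest for 45.7% and 27.2% and lowest for 11.4% and 28.4%. The difference between the sets was not tested. With the set as a term over all 12 libraries 19 of 35 members were positive, with a median of 0.01.

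Other genes of the pathway comprised 50 symbols, of co-receptors, other neuropilin ligands and cytoplasmic mediators, of which 48 were listed and tested. Over both sexes 0 of the 48 passed by edgeR, against 0.0259% of all genes, and 1 had an unadjusted p under 0.05, where 2.92% of all genes did. That gene, Chl1, encodes an adhesion molecule of the L1 family that acts with Nrp1 in the response to Sema3a. Chl1 had a lowest, median and highest level of 1.45, 1.86 and 2.44 FPKM in wildtype and 0.627, 1.353 and 1.998 in mutant libraries, which overlapped, and a log2 difference of -0.49 (SE 0.22, Benjamini-Hochberg adjusted p = 0.918 by edgeR). In males 0 of the 48 had an unadjusted p under 0.05, against 1.41% of all genes. In females 3 did, against 2.63% of all genes, namely Chl1 (-0.49), Farp1 (0.18) and Nfasc (0.22), and 0 passed after adjustment in either sex. Between library sets 4 of the 48 passed, all higher in the high set, against 13.3% of all genes called and 11.4% called higher. They were Rap1b (0.52) and Rap1a (0.78), small GTPases of the kind plexins inactivate, the kinase gene Gsk3b (0.27), whose product phosphorylates CRMPs, and Ranbp9 (0.29), by edgeR with adjusted p from 0.00224 to 0.0119.

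No member of the authors' deposited tables had an adjusted p under 0.05 in the comparison over both sexes, in males or in females, where 15, 6 and 9 genes did. The smallest member p in the authors' deposited tables was 0.0701 for Plxna1 over both sexes, 0.21 for Plxna2 in males and 0.034 for Sema5b in females. Of the members, 7 overlap a listed gene on the opposite strand, and the strand setting of the counting is not given in the sources used here. For Crmp1 the overlapping gene is Evc, with a median of 830 counts against 13562 for Crmp1, and for Plxna1, Plxna4, Plxnb1, Sema4c, Sema5b and Sema6d it had at most 70.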

How the data were processed

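RNA of 12 pooled retina libraries was analysed from the deposited tables of gene counts. The submitters' processing notes name CASAVA for base calling, STAR 2.5 for alignment against mm10, HTSeq 0.6.1 for counting and DESeq2 for testing, and no annotation release is given in the sources used here. Per the file headers, the deposited counts are raw reads per gene and library. The deposited FPKM values divide each count by gene length and library total. The normalised signal, log2 fold change and p-value columns deposited by the authors entered no test.

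Tests ran on the counts of the whole 12-library table with edgeR 4.0.16 in R 4.3.3 (TMM scaling, filterByExpr, two-sided quasi-likelihood test, Benjamini-Hochberg adjustment over all genes, threshold 0.05), with DESeq2 1.42.0 and limma 3.58.1 voom as alternatives. Standard errors were derived from the F statistic and restate the test. The filter kept 35 of 36 members. FPKM gave levels per length and entered no test. Transcript GC came from the longest GENCODE vM21 transcript of each gene. GC-corrected offsets were a loess fit, with a span of 0.3, of the deviation of each library from the mean on GC. Counts were also simulated for each comparison, with 67 genes above 1 CPM changed at 1.5-fold, 67 at 2-fold and 65 or 66 at 4-fold in the same run. Changes at 1.5-fold were recovered in 59.7% of cases over both sexes, 23.9% in males and 19.4% in females. At 2-fold the shares were 86.6%, 74.6% and 71.6%. The simulated libraries had no difference between sets and no trend with GC content, unlike the real ones. They also held far more changed genes than the 4, 0 and 1 called in the real comparisons. More changed genes make the adjusted threshold easier to reach, so these shares need not hold for the real libraries and may be too high.

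The members, the pathway list, the marker lists and the library sets were chosen with earlier results of these data known. Named were members past the threshold in any comparison, those with an unadjusted p under 0.05 between genotypes or sexes, those separate between genotypes in both sexes, the highest 3 and the lowest of each role and those with the largest and smallest coefficient of variation, and Eomes. Other members are given by role with their ranges, and those separate in 1 sex were named after their values were seen. Deviations of same-numbered wildtype and mutant pools from their group means had correlations of 0.21, 0.213 and 0.138 in females for numbers 4, 5 and 6. In males they were -0.205, 0.00822 and 0.292. The mutant pool of the same number was the best match for female 4, female 5 and male 6, and not for the others. No libraries of a group were duplicates, with a chi-square per degree of freedom of at least 6.8. Promoter sequences came from RefSeq (GRCm38.p6). Protein sequences were not used here.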

Additional observations from a re-analysis of the deposited data

Results flagged for a closer look

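Plxnb2, the most abundant plexin, was flagged for the gap between 1 wildtype library and the others. Wildtype male 4 stood at 64.9 FPKM and the next highest, wildtype male 5, at 58.9, and this gap was 0.631 of the whole wildtype range, above the limit of 0.625 for 6 libraries. It was the only such case among 72 groups of 6 libraries checked over the 36 members and both genotypes. By chance about 1 in 20 of such groups passes the limit, so 1 case in 72 is not more than chance would give.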

How the results depend on the processing

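Members called between genotypes or sexes, or by their interaction, numbered 0 under every alternative that could be fitted. These included the replicate number as a block, which was fitted alike in both sexes. Genotype in males within the high set was not run, since each genotype has 1 library there. Members called between library sets numbered 6 by edgeR, 2 with the replicate block (Plxna3 and Sema3a), 2 without the 3 libraries highest in the lens gene Cryaa (Sema3a and Sema5a), 0 with GC-corrected offsets and 2 to 10 when each library was left out in turn. Sema3a kept its call in 18 of 19 alternatives and Plxna3 in 17, all but the GC-corrected offsets and, for Plxna3, the fit without the lens-high libraries. Among the differences followed gene by gene, directions reversed for Sema5b between genotypes within the high set (-0.0595) and for Nrp1 between sets with GC-corrected offsets (-0.112). More members changed sign between genotypes within the high set, where 5 of 35 were positive, against 21 of 35 over all 12 libraries. Small genotype differences of others changed sign with GC-corrected offsets, as for Crmp1 (0.02 to -0.03). Larger moves over both sexes with these offsets were those of Nrp1 (0.02 to 0.16) and Sema3d (0.23 to 0.46), while Plxna1 fell from 0.18 to 0.12. Nrp1 then had the smallest member p (edgeR, unadjusted p = 0.0502, Benjamini-Hochberg adjusted p = 0.971). The causes were not tested. Calls over all genes in the comparison of both sexes numbered 4, 15 by DESeq2, 9 with the set as a term or with GC-corrected offsets, 2 with the replicate block, 0 without the lens-high libraries and 1 to 5 when each library was left out. In females 1 gene was called, 10 by DESeq2, 62 and 61 within the high and low sets (where 1 library, mutant female 4 or wildtype female 5, stands alone against 2 and is assumed to vary like the others), 2 with the replicate block, 0 without the lens-high libraries and 0 to 2 when each library was left out. In males 0 genes were called and 6 by DESeq2, and by the interaction 0 and, within the high set, 2, from 5 libraries of which 3 stand alone in their group. Between the sexes 2 were called, 1 within the low set or without the lens-high libraries and 4 with GC-corrected offsets. Between library sets 2057 were called, 1155 with the replicate block, 861 without the lens-high libraries, 718 with GC-corrected offsets and 1272 to 3273 when each library was left out. The 10 members with the highest wildtype levels were the same in all 7 alternatives. Depth limits Sema3c, Sema3d and Plxnb3 most.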

Other observations

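Mutant female 4, the library with the most genes detected (19242), held the lowest level for 11 of the 35 members tested (31.4%) and for 17% of all genes. Without the 3 libraries highest in the lens gene Cryaa (mutant female 5, mutant male 5 and wildtype male 5), Sema3d and Sema4f had an unadjusted p under 0.05 between genotypes over both sexes by edgeR, where 1.61% of genes did, and no member passed the adjusted threshold. Without mutant male 4 the members with an unadjusted p under 0.05 were Plxna1, Plxnb1, Plxnb2 and Sema5b, where 11.7% of genes had one, and all 8 plexins tested were positive. These values bear on sets of libraries seen in the data, and what sets the libraries apart was not tested.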
